A study of Mus musculus with 2 samples.

Results

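Fine cluster 3 of mouse colon CD8 T cells comprised 1084 of the 8562 cells in the deposited data, or 12.7%. Its members were the cells that carry the number 3 in the depositors' fine clustering, which has 12 clusters. The cells were CD8 T cells isolated from the lamina propria of the colon, in Rag1 knockout hosts, which lack T and B cells of their own. Each host had received splenic wildtype naive CD4 T cells (CD4+CD45RBhighCD25-) together with splenic TCRb+CD8b+ T cells, in the transfer model of colitis, and was analysed 6 to 10 weeks later. Hosts were 8 to 12 weeks old when the transfer began. The transferred CD8 T cells came from Bcl6fl/fl donors or from Bcl6fl/fl donors carrying Cd8aCre, a Cre driven by the Cd8a gene, and all hosts shared the wildtype CD4 T cells. The cells carry the conditions Cren and Crep, read here as Cre-negative and Cre-positive, a reading that no source used here spells out. There were 4 hashtags per condition, where a hashtag is an antibody-linked barcode that marks the cells of one sample in a pooled library. No source used here says that each hashtag is a separate mouse, so p-values measure the spread between hashtags.

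CD8 T cells that enter the gut can become resident cells, which stay in the tissue and often carry the integrin CD103, encoded by Itgae. Others remain effector cells, which kill through granzymes and perforin and express transcription factors such as Eomes and T-bet. Interleukin-2 and related cytokines act through STAT5, which induces the feedback inhibitors Cish and the Socs genes. Bcl6 is a transcriptional repressor known for its part in memory and follicular T cells.

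The cells of cluster 3 carried 3295430 unique molecular identifiers (UMIs, one per captured transcript), with a median of 2895 UMIs and 1314 genes per cell. The cells outside it had a median of 2747 UMIs, and those of cluster 0, which held 1321 cells, 2727 UMIs. The summed UMIs of cluster 3 ranged from 89123 to 966258 per hashtag. Its median UMIs per cell did not separate Crep from Cren (2790 ± 465 and 2691 ± 215, SD, n = 4 each, exact two-sided permutation p = 0.771). The median mitochondrial percent was 0.643 ± 0.031 in Crep and 0.730 ± 0.075 in Cren (SD, n = 4 each, exact two-sided permutation p = 0.0571), where the smallest p the design allows is 0.0286. All cells came from 1 pooled library, no doublet caller was run here, and 22 cluster 3 cells were not given their hashtag by both classifiers of the depositors.

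Cluster 3 held CD8 T cells by its marker genes. In CPM, which scales a gene's UMIs to the summed UMIs of the hashtag's cluster 3 cells, Cd8a was at 1030.3 ± 141, Cd8b1 at 898 ± 131 and Cd3e at 1435 ± 176 (SD, n = 8 hashtags). All 12 of the 12 CD8 T cell identity genes had UMIs in the cluster, and they summed to between 8752 and 10812 CPM per hashtag. Cd4 was at 2.69 ± 4.34 CPM and Trdc, the gamma-delta receptor chain, at 0.304 ± 0.859 CPM. The 6 CD4 T cell markers summed to 0 to 56.1 CPM in Cren and 17.8 to 37.5 CPM in Crep, against 22.6 to 86.9 CPM outside. The 5 measured gamma-delta markers summed to 22.4 to 107 CPM in Cren and 26.7 to 116 CPM in Crep, against 48.8 to 175 CPM outside. The 9 measured NK and innate markers, which include Eomes, summed to 123 to 190 CPM in Cren and 112 to 223 CPM in Crep, against 103 to 169 CPM outside. Itgam, a marker of myeloid cells, was at 0. The 11 detected of 12 measured myeloid markers summed to 338 to 381 CPM in Cren and 287 to 517 CPM in Crep, against 368 to 523 CPM in the cells outside the cluster, and their part in any result was not tested. In the depositors' coarser clustering, 1039 of the 1084 cells fell into one coarse cluster, of which they made up 51.6%.

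Cluster 3 was unevenly spread over the hashtags. It held 5.13%, 13.5%, 10.7% and 3.67% of the cells of Cren_1 to Cren_4, and 24.0%, 27.7%, 12.3% and 4.59% of those of Crep_1 to Crep_4. Crep_1 and Crep_2 stood above all others, while Crep_4 lay below 3 of the 4 Cren hashtags, so the conditions overlapped. The means were 17.2% ± 10.6 in Crep and 8.24% ± 4.62 in Cren (SD, n = 4 each), a difference of 8.91 percentage points that was 5.40 without Crep_2. Within clusters 0 and 3 together, cluster 3 made up 50.8% ± 5.62 of the cells in Crep and 35.1% ± 15.4 in Cren. The Cren hashtags ranged from 12.9% in Cren_4 to 48.1% in Cren_3, which lay among the Crep hashtags, and without Cren_4 the gap was 8.35 points in place of 15.7. The shares are given as a description without a test, because genes that define the cluster can themselves differ between Crep and Cren. Over all cells, 59 of 9653 genes differed between Crep and Cren by edgeR's quasi-likelihood test at an adjusted p of 0.05 (0.611%), and 14 passed without Cren_1 or without Crep_2, 31 without Cren_2, 24 without Cren_4 or without Crep_1, 25 without Crep_3 and 121 without Cren_3. Crep_1 and Crep_2 supplied 22.6% and 27.9% of the cluster's cells, so every level below is a mean over hashtags with equal weight unless stated.

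**Figure D1:**
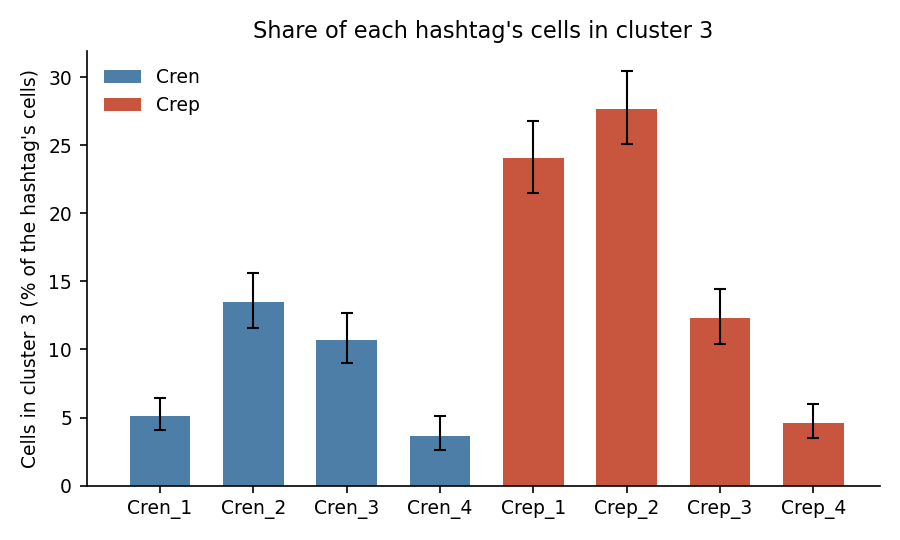
Percent of each hashtag's cells that lie in cluster 3, for the 4 Cren and 4 Crep hashtags. Bars are the shares and lines their 95% Wilson intervals, which cover counting error only. Crep_1 and Crep_2 are highest at 24.0% and 27.7%, and Crep_4 at 4.59% lies among the Cren hashtags.

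Of the 3 genes proposed as markers of the cluster, Gzmb and Cish were higher in cluster 3 than in the other cells of every hashtag, and Zfp683 was not. Gzmb encodes granzyme B, a protease of cytotoxic granules, and lies on chromosome 14 (56258838-56262260, GRCm38, GENCODE M21). Its level was 3257, 1696, 2831 and 617 CPM in Cren_1 to Cren_4 and 4546, 3382, 3652 and 4351 CPM in Crep_1 to Crep_4. Every Crep hashtag lay above every Cren hashtag, and Cren_4 was lowest. The mean of 3041 ± 1323 CPM compared with 1954 ± 1199 CPM in the cells outside the cluster (log2 difference 0.74 ± 0.41, SD over 8 hashtags, higher in 8 of 8). In the summed cells of each of the 12 clusters, Gzmb was at 4158 CPM in cluster 7, 3380.1 CPM in cluster 3 and 3344 CPM in cluster 4. Such sums weigh hashtags by their cells, and Crep made up 96.3%, 66.2% and 77.4% of the cells of these clusters. The part of this mix in the order of clusters was not tested.

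Cish, on chromosome 9 (107296026-107302784, GRCm38), encodes a SOCS-family protein that dampens cytokine receptor and T cell receptor signals. It was at 143, 165, 219.6 and 168 CPM in Cren_1 to Cren_4 and at 231, 245, 185 and 223 CPM in Crep_1 to Crep_4. The range was narrow beside that of Gzmb, with Cren_3 lying among the Crep hashtags. The mean of 198 ± 36.9 CPM was above the 125 ± 34.0 CPM of the other cells in 8 of 8 hashtags (log2 difference 0.68 ± 0.21) and above the 141 ± 39.8 CPM of cluster 0 in 8 of 8 (0.52 ± 0.22). In summed cells, in which the share of Crep ranged from 1.79% to 96.3% between clusters, cluster 3 had the highest Cish, Socs2, Bcl6 and Dusp2 of the 12 clusters. Bcl6 was at 36.7 CPM there and at 33.8 CPM in cluster 2, where 32.2% of the cells were Crep.

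Zfp683, on chromosome 4 (134053838-134058996, GRCm38), encodes Hobit, a transcription factor of resident lymphocytes. It was at 14.8, 85.0, 109.8 and 0 CPM in Cren_1 to Cren_4 and at 58.5, 73.5, 50.9 and 44.6 CPM in Crep_1 to Crep_4. The Cren hashtags lay both above and below the Crep hashtags. Cren_4, at 0, had the fewest cluster 3 cells, 33, and its depth allows up to 33.7 CPM (3 counts). The mean of 54.6 ± 35.9 CPM was below the 72.2 ± 35.1 CPM of cluster 0 in 8 of 8 hashtags (log2 difference -0.98 ± 1.67, and -0.40 ± 0.37 over the 7 hashtags above 0). Those 7 lay above the other cells as a whole (0.70 ± 0.42). Clusters 10 and 0 had higher Zfp683 than cluster 3 in summed cells (75.7, 71.0 and 65.8 CPM). Of the 3 marker genes, Zfp683 was thus the one that was lower in cluster 3 than in cluster 0.

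Detection in single cells showed the same order at one depth. Among cells thinned to 2000 UMIs, 83.7% of 828 cluster 3 cells had a Gzmb UMI, against 60.8% of 1042 cluster 0 cells and 64.4% of 5811 cells outside cluster 3. Cish was detected in 32.5%, 23.5% and 19.2% of these cells, and Zfp683 in 11.2%, 12.7% and 6.08%. All 3 genes were detected together in 3.50% of cluster 3 cells, 2.59% of cluster 0 cells and 0.981% of the cells outside cluster 3, so most cluster 3 cells did not show all markers at once. Without thinning, the shares in cluster 3 were 85.1% for Gzmb, 41.7% for Cish and 16.3% for Zfp683. All these shares pool cells over hashtags, so hashtags with more cells weigh more. By hashtag, Gzmb was detected in 47.8% to 78.2% of thinned cluster 3 cells in Cren and in 86.7% to 92.3% in Crep. Crep made up 66.2% of all cluster 3 cells and 49.4% of cluster 0 cells. The part of this mix in the shares was not tested. All cells in the deposited data are given as CD8 T cells, so no set of cells of another type gives the background of these genes.

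**Figure D2:**
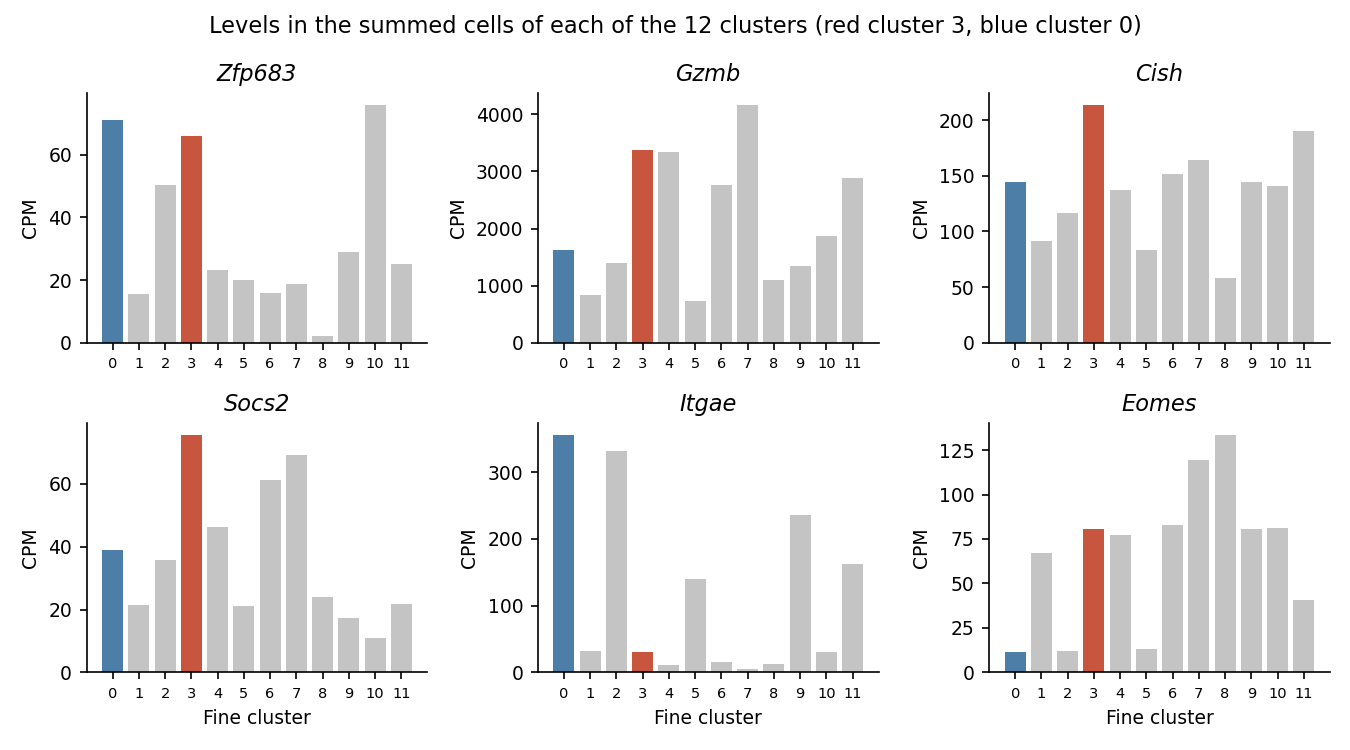
CPM of Zfp683, Gzmb, Cish, Socs2, Itgae and Eomes in the summed cells of each of the 12 fine clusters, with cluster 3 in red and cluster 0 in blue. Cluster 3 is highest for Cish and Socs2, below cluster 7 for Gzmb, and below clusters 10 and 0 for Zfp683, in sums whose share of Crep cells differs between clusters (66.2% in cluster 3).

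Clusters and levels come from the same cells, so levels of cluster 3 against other cells are described and not tested. Of 2902 genes with at least 50 CPM in cluster 3 or in the other cells, 130 were higher in cluster 3 in 8 of 8 hashtags (4.48%) and 62 were lower in 8 of 8 (2.14%). The mean difference was over 2-fold for 1 of the 130 and 9 of the 62, and the median log2 difference of all 2902 genes was 0.006. Rgcc, a regulator of the cell cycle on chromosome 14, was the one higher by over 2-fold (53.6 ± 5.98 against 26.1 ± 7.34 CPM, log2 difference 1.05 ± 0.44, SD over 8 hashtags). In summed cells, cluster 6 had more Rgcc than cluster 3 (69.0 and 53.4 CPM).

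The other leading genes included regulators of signalling and transcription factors. Dusp5 and Dusp2, nuclear phosphatases that switch off MAP kinases, had log2 differences of 0.86 and 0.69. Samsn1 (0.81), an adaptor that restrains lymphocyte signalling, Trp53i11 (0.90), the interferon-induced GTPase Gbp4 (0.80), the drug efflux pump gene Abcb1b (0.78) and Jarid2 (0.74), a partner of the Polycomb complex, were also among the 10 highest. Rgs1 (0.71), which damps signals of G protein-coupled receptors and is abundant in gut T cells, was higher in 8 of 8 hashtags, as were Odc1 (0.70), of polyamine synthesis, and P2ry10 (0.73). Bhlhe40 (0.68), a transcription factor of activated and resident T cells, Zfp36l2 (0.68), an RNA-binding protein, Nfkb2 (0.65), Lilr4b (0.67) and Rundc3b (0.67) were also among the 20 highest, together with Trbc1 (0.78), whose level depends on the receptor clones present. In summed cells, only Dusp2 of these genes was highest in cluster 3. Dusp5, Bhlhe40 and Zfp36l2 were highest in cluster 6, Rgs1 and P2ry10 in cluster 2, and Odc1, Nfkb2 and Trbc1 in cluster 11. The others were highest in cluster 9, which held 119 cells.

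The genes lower in cluster 3 than in the other cells were led by Ifitm1 and by genes of retention and egress. Ifitm1, an interferon-induced membrane protein, was at 59.5 ± 41.7 CPM in the cluster and 312.5 ± 219 CPM outside it (log2 difference -2.39 ± 0.81). Itgae was at 29.7, 46.2, 11.9 and 11.2 CPM in Cren_1 to Cren_4 and at 14.9, 36.2, 50.9 and 17.8 CPM in Crep_1 to Crep_4, against 143 ± 72.7 CPM outside the cluster (-2.30 ± 1.22, lower in 8 of 8). The conditions overlapped for Itgae, and each hashtag's cluster 3 cells lay below its other cells. S1pr1, the receptor that guides T cells out of tissue, and Klf2, the factor that maintains it, were also lower (-1.68 ± 0.53 and -1.34 ± 0.49). Pdcd1, the checkpoint receptor PD-1, was at 26.1 ± 17.1 against 57.3 ± 33.9 CPM (-1.06 ± 0.91). It was not lower than in cluster 0 (0.05 ± 0.93, higher in 5 and lower in 3 hashtags). In summed cells, Pdcd1 was at 25.2 CPM in cluster 3 and 520 CPM in cluster 8, the highest, and cluster 3 ranked 7 of 12. Rasgrp2, Serp2, Txndc5, Hist1h4m and St6galnac3 completed the 10 lowest against all other cells. In summed cells, cluster 3 was not the lowest of the 12 clusters for Itgae, Ifitm1, S1pr1 or Klf2. From the highest, it ranked 8 for Itgae and Klf2 and 9 for Ifitm1 and S1pr1. Its Itgae, at 29.7 CPM, was close to that of clusters 1 and 10 (31.3 and 29.7 CPM).

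Set against cluster 0, cluster 3 differed by more genes and by larger steps. Of 2976 genes, 272 were higher in 8 of 8 hashtags (9.14%) and 155 lower (5.21%), and 74 and 26 of them by over 2-fold on average. These shares, with 4.48% higher and 2.14% lower against all other cells, are the background for the list counts that follow. Eomes was at 49.4, 102.0, 100.9 and 67.3 CPM in cluster 3 of Cren_1 to Cren_4 and at 89.6, 60.0, 83.1 and 107 CPM in Crep_1 to Crep_4. In cluster 0 it did not exceed 21.9 CPM in any hashtag, so the clusters did not overlap (log2 difference 2.80 ± 0.92). In summed cells, Eomes in cluster 3 (80.4 CPM) ranked 6 of 12 clusters, below cluster 8 (133 CPM) among others. Itgae went the other way, with 339 ± 118 CPM in cluster 0 against 27.4 ± 15.8 CPM in cluster 3 (-3.69 ± 1.08). In summed cells, cluster 0 had the highest Itgae of the 12 clusters, with cluster 2 next (356 and 331 CPM).

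Early-response genes were higher than in cluster 0. Of 13 measured genes of the T cell receptor signal and early-response list, 9 were higher than in cluster 0 in 8 of 8 hashtags and 0 were lower, with a median log2 difference of 0.97, against -0.002 over the 2976 genes. Nr4a1, an immediate-early nuclear receptor, was at 290.0 ± 116 CPM against 62.4 ± 39.3 CPM (2.43 ± 0.87), and Nfkbia, the inhibitor of NF-kB, at 725 ± 138 against 163 ± 24.1 CPM (2.14 ± 0.44). Ier2 (1.30), Junb (1.29), Dusp2 (1.25), Dusp1 (1.24), Cd69 (0.52), Zfp36 and Jund were the others. Dusp5, which the list does not hold, was at 369 ± 74.5 against 77.0 ± 28.4 CPM (2.33 ± 0.47). Against all other cells, 2 of the 13 were higher in 8 of 8 (Dusp2 and Junb), the list's median was 0.12, and Nr4a1 differed by -0.06 ± 0.31.

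Among effector and residency transcription factors, 9 of 14 were higher than in cluster 0 in 8 of 8 hashtags, with a list median of 0.995. Against all other cells, 2 were higher in 8 of 8 (Bhlhe40 and Id2) and Klf2 was lower, with a median of 0.08. Those higher than in cluster 0 were Eomes, Nr4a1, Bhlhe40 (1.79), Zeb2 (1.42), Klf3 (1.26), Nr4a2 (1.21), Klf2 (1.20), Stat4 (0.79) and Tbx21 (0.52), the gene of T-bet. Zfp683 was the one that was lower in 8 of 8. Runx3, which drives the CD8 lineage, was even between the clusters (0.003 ± 0.33). Klf2 thus lay above cluster 0 and below the other cells as a whole, with 446 ± 203 CPM in cluster 3 against 189 ± 80.4 and 1086 ± 362 CPM.

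The cytokine signalling and feedback list showed 5 of 16 members higher than in cluster 0 in 8 of 8 hashtags, with a list median of 0.53. Socs3 was at 103 ± 32.1 against 21.2 ± 12.2 CPM (2.64 ± 1.83), and 2.07 ± 0.95 over the 7 hashtags above 0 in cluster 0. Pim1, a survival kinase induced by cytokines, was 1.54 ± 0.41 higher, Socs1 0.75 ± 0.43, Il2rb, the shared receptor chain of interleukins 2 and 15, 0.53 ± 0.23, and Cish 0.52 ± 0.22. Il7r, the interleukin-7 receptor of naive and memory cells, was lower in 8 of 8 (541 ± 91.4 against 924 ± 202 CPM, -0.76 ± 0.30). The STAT5 genes themselves had no direction common to all hashtags, with Stat5a higher in 6 and Stat5b in 5 of 8 hashtags. Against all other cells, 2 of 16 members were higher in 8 of 8 (Cish and Jak3) and Il7r was lower, with a list median of 0.30. In summed cells, cluster 0 had the lowest Pim1 and Socs3 of the 12 clusters, and cluster 3 ranked 7 for Pim1 and 2 for Socs3.

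Cytotoxic granule genes differed in both directions. Of 16 measured, 5 were higher than in cluster 0 in 8 of 8 hashtags, namely Serpinb9 (2.09), which protects the cell from its own granzyme B, Serpinb6b, Gzmb (0.92 ± 0.47), Fasl (0.81) and the pore former Prf1 (0.71). Ctsw was lower in 8 of 8 (-0.56), and Gzma, at 2487 ± 1362 against 2672 ± 977 CPM, was higher in 3 and lower in 5. The list's median was 0.14. Against all other cells, 3 of 15 were higher in 8 of 8 (Gzmb, Serpinb9 and Fasl) and 0 lower, with a median of 0.12. In summed cells, cluster 3 ranked 6 of 12 clusters for Serpinb9, of which cluster 0 had the least, and 7 for Prf1. Among killer receptors and adaptors, 4 of 7 were higher than in cluster 0 in 8 of 8, namely Klrg1 (2.18 ± 1.05), a marker of terminal effector cells, Klrk1 (1.28), Klre1 (1.24) and Klrc1 (0.82), and Cd7 was lower. Against all other cells, 0 of 7 were higher in 8 of 8 and 0 lower, with a median of 0.07, and Klrg1 was higher in 4 hashtags and lower in 4 (0.17 ± 1.42).

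Residency surface genes split in both directions against cluster 0. Of 12 measured, 4 were higher in 8 of 8 hashtags, among them Itgb1 (1.34), Rgs1 (0.59) and Cd69 (0.52), and 3 were lower, namely Itgae, Cxcr6 (-0.49) and Jaml (-0.41), with a list median of -0.22. Itga1, the collagen-binding integrin CD49a, was lower in 7 of 8 (-0.87 ± 1.18). Tcf7, which marks stem-like T cells, was at 66.8 ± 34.9 CPM, below cluster 0 (108 ± 31.7 CPM) and below the other cells (114 ± 51.0 CPM) in 8 of 8 hashtags each. Of 8 measured genes of the inhibitory receptor and exhaustion list, the transcription factor Nr4a2, the inhibitory receptors Ctla4 (1.17) and Tigit (1.05) and the costimulatory receptor Icos (0.89) were higher than in cluster 0 and Cd160 and Lag3 (-0.93) lower in 8 of 8. Of 24 oxidative phosphorylation genes, 0 were higher and 6 lower than in cluster 0 in 8 of 8, where 5.21% of all genes were lower. Against all other cells, 0 of 23 were higher and 0 lower, with a median of -0.009. Ribosomal protein genes took 20.2% ± 1.68 of UMIs in cluster 3, 22.6% ± 1.44 in cluster 0 and 21.5% ± 1.93 in all other cells.

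The other genes lowest against cluster 0 were Apol7b (-3.95 ± 1.68), Gpr34 (-3.10), the Notch regulator Dtx1 (-2.59), Prrt1 (-2.38), Nt5e (-2.17), which encodes the ectoenzyme CD73, Ly6g5b (-1.86) and Tcrg-C4 (-1.84). Ifitm1 (-2.81) and the actin-capping gene Capg (-1.62 ± 0.97) belonged to them as well. Each of Apol7b, Gpr34, Dtx1, Prrt1, Ly6g5b and Tcrg-C4 was at 0 in 1 or 2 hashtags of cluster 3, and over the hashtags above 0 their differences lay between -3.30 (Apol7b) and -1.25 (Tcrg-C4). Cdkn1a, the cell-cycle inhibitor p21, and Ly6c2, an interferon-responsive marker of effector cells, were among the highest (2.49 ± 1.44 and 2.11 ± 1.13), and Cdkn1a was 2.03 ± 0.70 higher over the 7 hashtags above 0 in cluster 0.

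Other gene lists differed as follows. Over all genes, 9.14% were higher and 5.21% lower than in cluster 0 in 8 of 8 hashtags. Against all other cells, these shares were 4.48% and 2.14%. Of 17 S100, annexin, galectin and cytoskeleton genes, 8 were higher than in cluster 0 in 8 of 8 hashtags, among them Ahnak, S100a4, Anxa2 and Lgals1, and 2 were lower (Capg and Tmsb4x), with a median of 0.26. Against all other cells, 3 of the 17 were higher and 1 lower, with a median of 0.07. Of 12 glycolysis genes, 4 were higher than in all other cells in 8 of 8 (Slc2a3, Hif1a, Ldha and Eno1) and 0 lower, with a median of 0.12. Against cluster 0, 4 of the 12 were higher and 0 lower, with a median of 0.08. Of 11 heat shock genes, Hspa1a, Hsp90aa1 and Hsp90ab1 were lower than in all other cells in 8 of 8 and Hspa5, the chaperone of the endoplasmic reticulum, was higher, with a median of -0.19. Against cluster 0, 1 of the 11 was higher and 2 were lower, with a median of -0.26. The chemokine gene Ccl4 was higher than in both in 8 of 8, and Tnf was lower than in cluster 0.

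**Figure D3:**
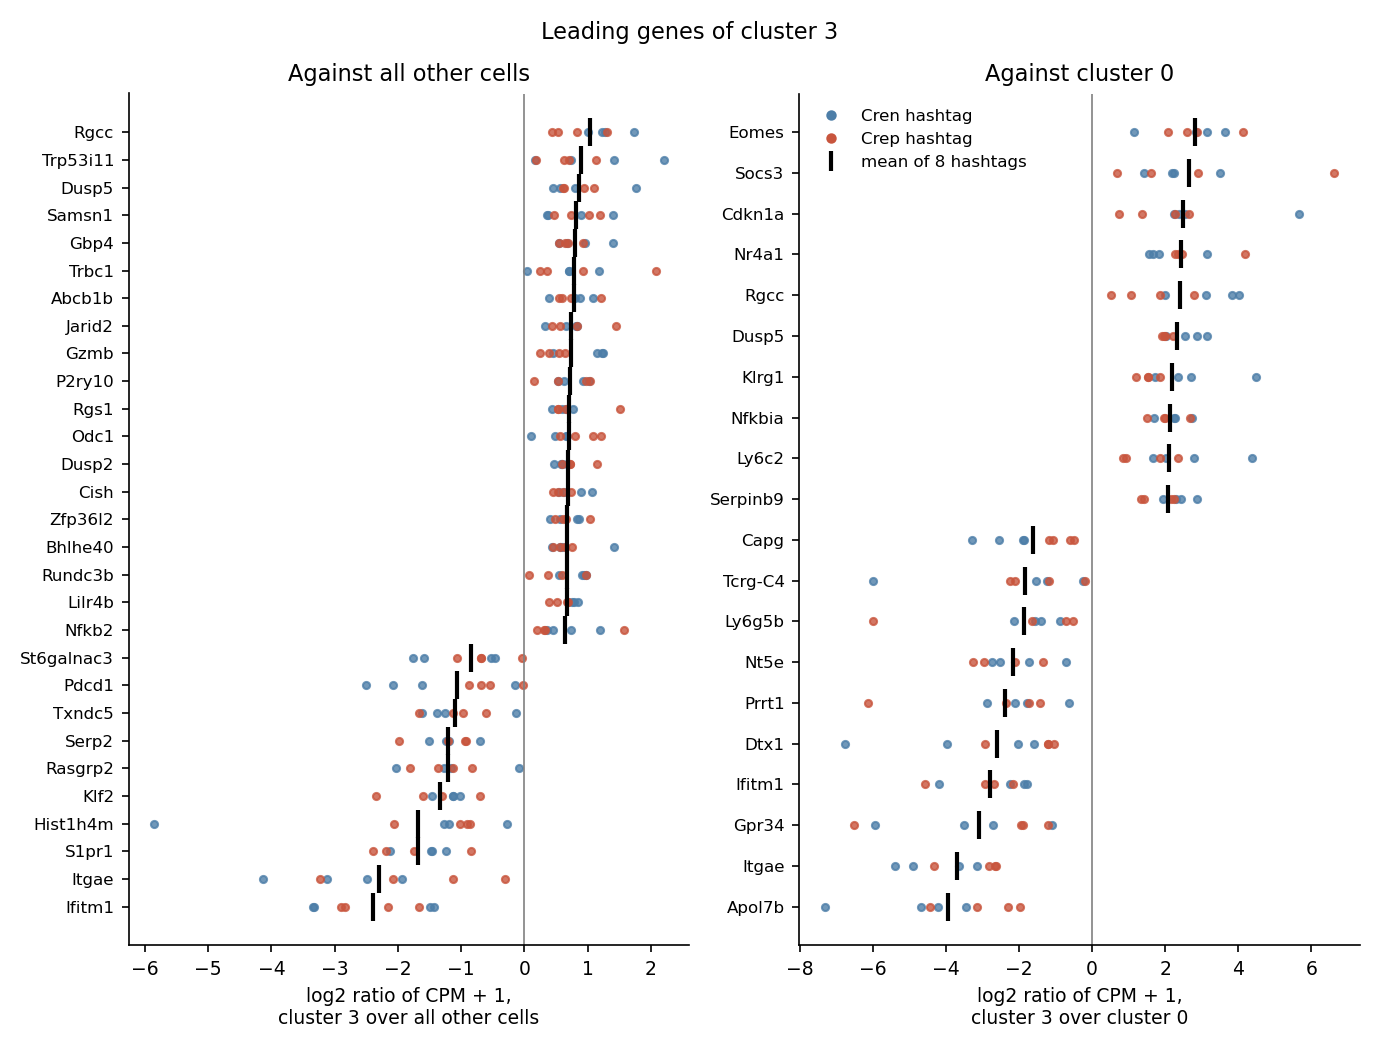
Log2 ratio of CPM plus 1 in cluster 3 over all other cells (left) and over cluster 0 (right) for leading genes in each direction, with 1 point per hashtag and a bar at the mean of 8. Genes higher than in the other cells lie mostly within 2-fold (Rgcc 1.05), whereas against cluster 0 Eomes reaches 2.80 and Itgae -3.69.

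The upstream sequences of leading genes are shown because the Cish and Socs genes of the cluster are known STAT5 targets. The letters TTCNNNGAA, a palindrome that is the same on both strands, are the general form of a STAT site. They were searched in the 250 bases before each RefSeq gene start (GRCm38.p6), and 7.02% of all promoters, or 8.13% of genes, in that table held a match. Of the 20 leading genes against all other cells, 14 were in the table, with 18 promoters, and 3 genes had a match, namely Trp53i11, Lilr4b and Nfkb2. Of the 10 leading genes against cluster 0, 9 were in the table and 1 had a match, Socs3. Of the 20 genes of the cytokine list, 16 were in the table and 3 had a match, namely Socs3, Il7r and Lta, while the Cish window held none. That window (chr9:107296409-107296658) overlaps an annotated exon and lies within the gene span given above. It thus does not cover the bases before that span, and its lack of a match says nothing about them. The windows of Socs3 and Nfkb2 overlap annotated exons as well. The windows of Trp53i11 and Lilr4b, which overlap no annotated exon, are printed with the match in capitals, beside that of the marker Gzmb, which has no match. They lie at chr2:93187298-93187547 on the plus strand, chr10:51480362-51480611 on the plus strand and chr14:56262335-56262584 on the minus strand. The match begins 199 bases before the start of Trp53i11 and 104 bases before that of Lilr4b.
Trp53i11: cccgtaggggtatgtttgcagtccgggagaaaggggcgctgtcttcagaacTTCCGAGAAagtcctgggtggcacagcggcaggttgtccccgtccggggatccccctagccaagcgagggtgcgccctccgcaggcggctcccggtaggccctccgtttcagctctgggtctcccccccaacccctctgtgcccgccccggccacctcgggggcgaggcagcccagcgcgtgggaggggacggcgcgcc
Lilr4b: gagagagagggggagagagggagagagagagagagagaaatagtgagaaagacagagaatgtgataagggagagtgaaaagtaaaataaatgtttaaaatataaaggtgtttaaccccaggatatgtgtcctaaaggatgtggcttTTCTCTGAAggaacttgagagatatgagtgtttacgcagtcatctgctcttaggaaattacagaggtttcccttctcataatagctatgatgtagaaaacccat
Gzmb: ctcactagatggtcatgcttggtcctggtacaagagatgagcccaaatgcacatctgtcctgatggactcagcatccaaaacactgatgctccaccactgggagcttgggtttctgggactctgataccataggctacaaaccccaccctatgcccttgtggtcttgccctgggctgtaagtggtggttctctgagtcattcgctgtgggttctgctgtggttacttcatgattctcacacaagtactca

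The comparison of Crep with Cren asks what differed within cluster 3 between the conditions, which are read here as the donors' genotypes. No gene passed at an adjusted p of 0.05 in edgeR's quasi-likelihood test of summed UMIs per hashtag, 0 of 4548 genes (0%), and 261 genes had an unadjusted p below that value. DESeq2 called 2 genes, Capg and Trbv19, and limma-voom 0. In edgeR, 2 genes passed without Cren_1, 2 without Cren_2, 3 without Crep_1 and 1 without Crep_2. For 95 genes, the lowest Crep hashtag exceeded the highest Cren hashtag (2.09%), and for 64 genes the reverse held (1.41%). The genes with the smallest p-values are described below as values that did not pass.

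Bcl6 was at 24.7, 17.0, 20.8 and 22.4 CPM in Cren_1 to Cren_4 and at 51.0, 29.0, 67.0 and 53.5 CPM in Crep_1 to Crep_4. All Crep hashtags thus lay above all Cren hashtags, on 100 UMIs in Crep and 21 in Cren (log2 difference 1.15, SE 0.35, edgeR adjusted p = 0.429). Over all cells, of which cluster 3 is a part, Bcl6 passed with a log2 difference of 0.75 (edgeR adjusted p = 0.0293). That call was lost without the cells of cluster 3 (0.61, adjusted p = 0.0730) and without Cren_1, Cren_2, Crep_1, Crep_2 or Crep_3 (adjusted p up to 0.117). The files count UMIs per gene, and the kit reads the 5' end, so they do not check the deletion of floxed exons.

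Cd5, an inhibitor of T cell receptor signalling, was at 193, 138, 282 and 236 CPM in Cren_1 to Cren_4 and at 133, 89.0, 129 and 107 CPM in Crep_1 to Crep_4. Every Crep hashtag lay below every Cren hashtag (log2 difference -0.86, SE 0.20, edgeR adjusted p = 0.188). Cd5 passed without Cren_2 (adjusted p = 0.00627), with cells thinned to 2000 UMIs (0.00454) and with no filter on low counts (0.00713), and its adjusted p was at most 0.508 without any 1 hashtag. Phlda1, a pleckstrin-domain gene induced by T cell receptor signals, separated the same way, at 41.3 to 67.3 CPM in Cren and 8.92 to 25.9 CPM in Crep (-1.29, SE 0.30, edgeR adjusted p = 0.188). The chaperone Hsp90aa1 was at 343 ± 88.3 CPM in Cren and 249 ± 18.6 CPM in Crep (-0.51, SE 0.14, edgeR adjusted p = 0.249), and the hashtags overlapped.

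Higher values in Crep with the smallest p included Glrx, which encodes the redox enzyme glutaredoxin. It was at 247, 153, 196 and 123 CPM in Cren_1 to Cren_4 and at 308, 337, 271 and 187 CPM in Crep_1 to Crep_4, so that Crep_4 lay among the Cren hashtags (log2 difference 0.69, SE 0.16, edgeR adjusted p = 0.188). Glrx passed without Cren_1 (adjusted p = 0.0344), with thinned cells (0.0114) and with no filter on low counts (0.00795), and its adjusted p was at most 0.589 without any 1 hashtag. The chemokine gene Ccl4 was at 1926 ± 474 CPM in Cren and 2799 ± 297 CPM in Crep (0.52, SE 0.13), and Anxa1, of the annexins, at 27.6 ± 16.1 and 50.1 ± 13.8 CPM (1.32, SE 0.35), both with an edgeR adjusted p of 0.249 and with overlapping hashtags. Ccl4 passed without Cren_2 (adjusted p = 0.0260) and with no filter on low counts (0.00378). Rexo5 (1.22), Arhgap26 (0.93), Gm21887 (1.17) and AC163354.1 (1.96) were above every Cren hashtag in all 4 Crep hashtags, with edgeR adjusted p of 0.188 for Gm21887 and 0.249 for the others. Over all cells, Rexo5, Glrx, Gm21887 and Hsp90aa1 passed, with the cells of cluster 3 and without them. Of these calls, that on Rexo5 held in all 8 fits that left out a hashtag. Gm21887 was lost without Cren_1 (adjusted p = 0.0526), Glrx held without Cren_3 or Crep_4 and was lost without any other hashtag (up to 0.133), and Hsp90aa1 held without Cren_2 or Cren_3 and was lost without any other (up to 0.0967).

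The markers of the cluster did not pass either. The log2 difference was 0.87 for Gzmb (SE 0.42, edgeR adjusted p = 0.905), 0.34 for Cish (SE 0.15, adjusted p = 0.844) and -0.17 for Zfp683 (SE 0.52, adjusted p = 1.00). Of the 20 genes leading against all other cells, 10 had a positive and 10 a negative difference, with a median of 0.02, against -0.003 over all 4548 genes.

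None of the genes in the lists passed in cluster 3 with edgeR, and each list is given by its counts. Of all 4548 genes tested in cluster 3, 49.3% had higher values in Crep. Of 18 S100, annexin, galectin and cytoskeleton genes, 15 had higher values in Crep, with a median of 0.17, led by Anxa1, S100a6 (0.48, SE 0.13) and Capg. Of 11 heat shock genes, 10 had lower values in Crep, with a median of -0.28, led by Hsp90aa1 and Hspe1. Cytotoxic granule genes were split 10 to 8, with a median of 0.08, and the cytokine feedback genes 9 to 7, with a median of 0.01. Early-response genes were split 7 to 8, and of 8 killer receptor genes 6 had lower values in Crep, with Klrk1 at 269.7 to 393 CPM in Cren and 214 to 263 CPM in Crep. Over all cells, which include cluster 3, 16 of 18 S100, annexin, galectin and cytoskeleton genes had higher values in Crep (median 0.43). All 11 heat shock genes had lower values over all cells (median -0.385), while 9 of 13 killer receptor genes had higher ones. Of all 9653 genes tested over all cells, 49.9% had higher values in Crep.

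**Figure D4:**
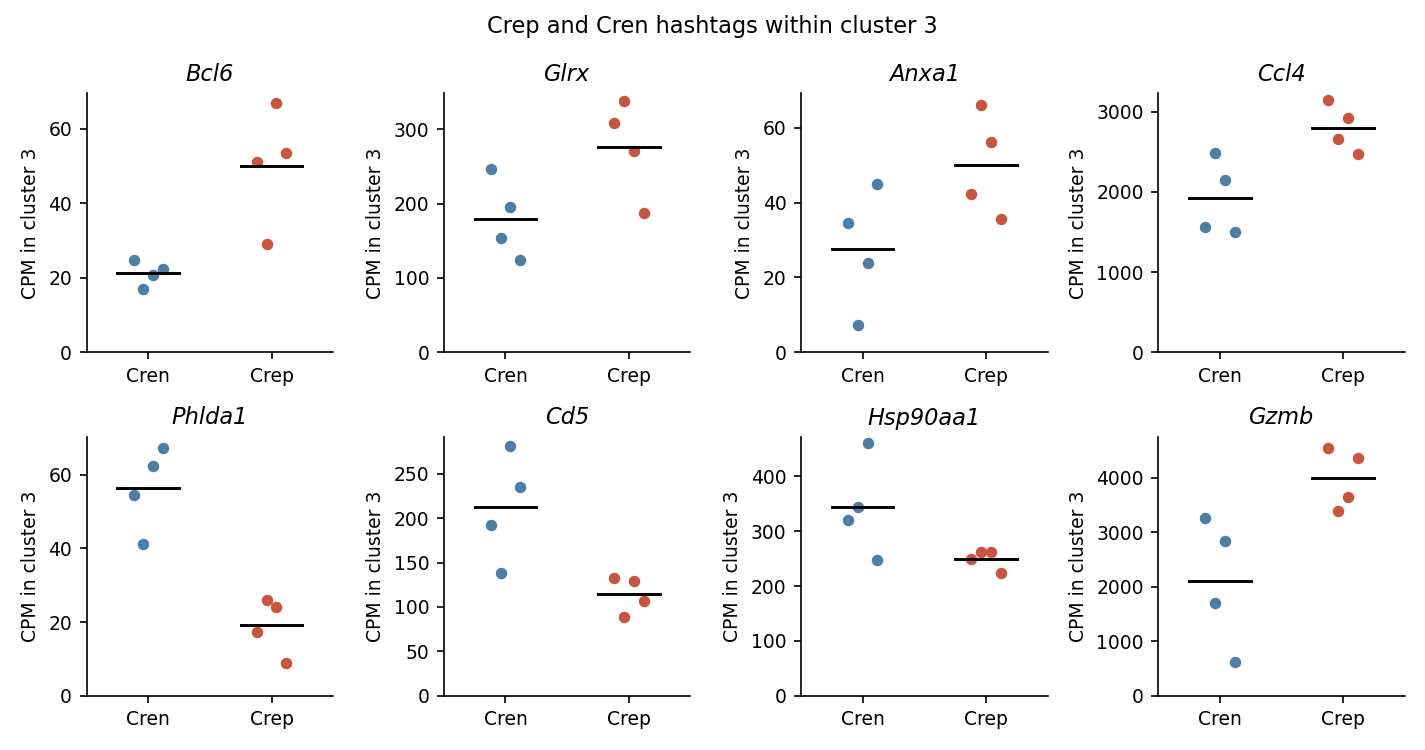
CPM within cluster 3 in each Cren (blue) and Crep (red) hashtag, with a line at the mean of 4, for Bcl6, Glrx, Anxa1, Ccl4, Phlda1, Cd5, Hsp90aa1 and Gzmb. Bcl6 and Gzmb are higher and Phlda1 and Cd5 lower in all 4 Crep hashtags than in every Cren hashtag, and no gene passed the edgeR test.

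Whether Crep and Cren differed by the same amount in cluster 3 as in cluster 0 was tested as an interaction in a fit that blocks on hashtag. It found 7 of 5636 genes with an unequal difference (0.124%), 4 with a more positive and 3 with a more negative difference in cluster 3, and 315 genes had an unadjusted p under 0.05. They were Gzmb, Capg, Klrc1, Bcl2a1d and the receptor segments Trav2, Trbv31 and Trbv12-1. Clusters and levels come from the same cells, so which cells fell into each cluster can itself alter these ratios. The p-values do not account for it. The count was 4 without Cren_1 and 13 without Cren_3.

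Gzmb differed between the conditions by a smaller ratio in cluster 3 than in cluster 0. In cluster 0 it was at 1149, 671 and 940.1 CPM in Cren_1 to Cren_3, at 402 CPM in Cren_4 and at 3242, 2322, 2446 and 2602 CPM in Crep_1 to Crep_4. The conditions did not overlap in either cluster, and the Crep hashtags of cluster 0 lay within the range of the Cren hashtags of cluster 3. The log2 ratio of the means, Crep over Cren, was 0.92 in cluster 3 and 1.75 in cluster 0. The means themselves were 3983 and 2100.1 CPM in cluster 3 and 2653 and 791 CPM in cluster 0, so the gap in CPM was about as wide in both, and the test concerns the ratio. The difference of log2 differences was -0.80 (SE 0.11, edgeR adjusted p = 1.7e-05), and it passed in each of the 8 fits that left out a hashtag and with all other cells in place of cluster 0 (-0.65, adjusted p = 0.0179). Gzmb is also a leading gene of cluster 3 against all other cells. The part of the assignment of cells to clusters in this ratio was not tested.

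Capg, on chromosome 6 (72544391-72562983, GRCm38), had the larger ratio in cluster 3. There it was at 64.3, 26.7, 71.2 and 33.7 CPM in Cren_1 to Cren_4 and at 128, 393, 273 and 285 CPM in Crep_1 to Crep_4. In cluster 0 it was at 239, 269.5, 269 and 201 CPM in the Cren and at 291, 557, 421 and 597 CPM in the Crep hashtags. Crep lay above Cren in both clusters, and the Cren hashtags of cluster 3 were the lowest of all. The means of Crep and Cren were 270.0 ± 109 and 49.0 ± 22.0 CPM in cluster 3 and 466 ± 139 and 245 ± 32.3 CPM in cluster 0, again with gaps of about the same width in CPM. The difference of log2 differences was 1.63 (SE 0.24, edgeR adjusted p = 4.1e-05), and it passed in all 8 fits that left out a hashtag but not against all other cells (1.29, adjusted p = 0.877). Within cluster 3 alone, Capg differed by 2.44 (SE 0.59, edgeR adjusted p = 0.553). That call passed with DESeq2 (adjusted p = 0.00545) and, in edgeR, without Crep_1 (adjusted p = 4.6e-09).

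Klrc1, which encodes the inhibitory receptor chain NKG2A, lies on chromosome 6 (129666015-129678973, GRCm38). It was at 811, 646, 649.8 and 752 CPM in the Cren and at 542, 619, 713 and 749 CPM in the Crep hashtags of cluster 3, which overlapped. In cluster 0 it was at 316 ± 54.3 CPM in Cren and 477 ± 87.2 CPM in Crep (SD, n = 4 each). The difference of log2 differences was -0.68 (SE 0.14, edgeR adjusted p = 0.00907) and did not pass without Cren_1, Cren_3 or Crep_2 (adjusted p up to 0.202).

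Bcl2a1d, an anti-apoptotic gene of the BCL2 family, was even within cluster 3, at 174 ± 18.3 CPM in Cren and 184 ± 28.9 CPM in Crep. In cluster 0 it was at 165 ± 21.8 and 89.8 ± 19.4 CPM, and no Crep hashtag reached a Cren hashtag there. The difference of log2 differences was 0.88 (SE 0.20, edgeR adjusted p = 0.0282) and passed in 2 of the 8 fits that left out a hashtag, those without Cren_2 and without Crep_4. Near-identical copies of this gene can share reads, so its count is uncertain.

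The calls on receptor segments were each lost without 1 or more hashtags. Trav2 was at 247 CPM in cluster 3 of Cren_4 and 244 CPM in that of Crep_1, at most 62.4 CPM in the other hashtags, and at 0 in cluster 0 of all Cren hashtags, so its fitted value of -7.31 is no measure of size (adjusted p 3.1e-07, edgeR). It did not pass without Cren_4 or without Crep_1 (adjusted p up to 0.844). Trbv31 (2.68, edgeR adjusted p = 0.00206) did not pass without Cren_1 or without Crep_2, and Trbv12-1 (1.73, edgeR adjusted p = 0.0443) did not pass in 5 of the 8 fits, those without Cren_1, Cren_2, Crep_1, Crep_2 or Crep_3. Neither Trav2 nor Trbv12-1 passed against all other cells.

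**Figure D5:**
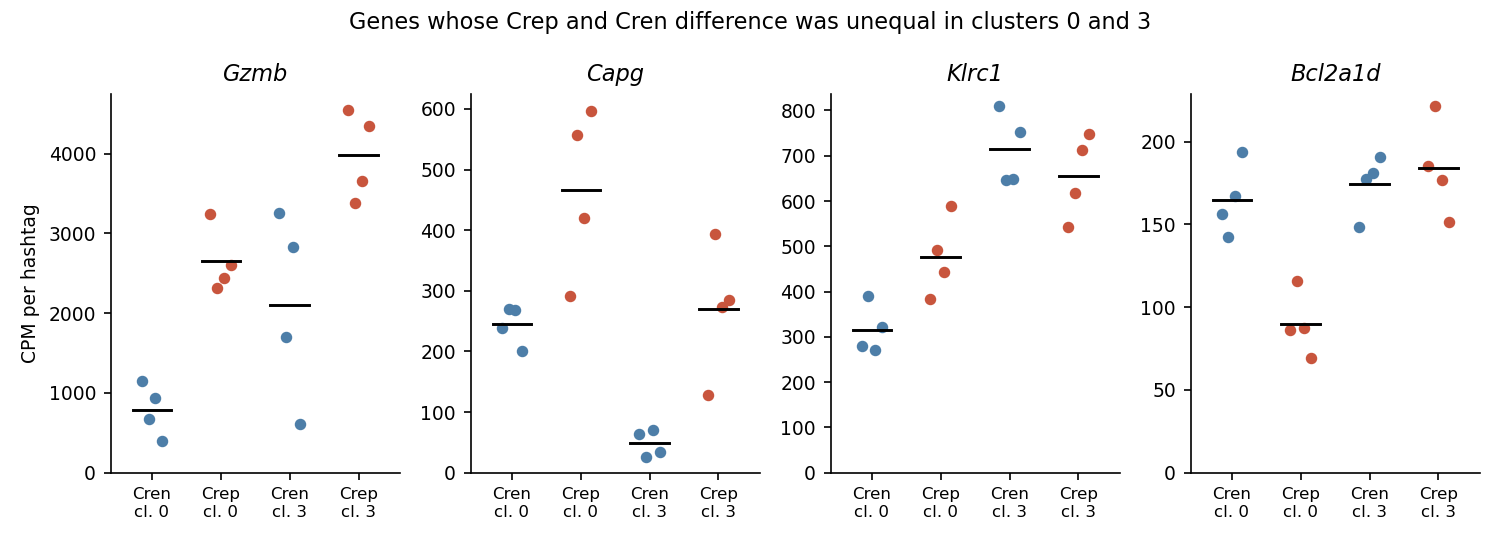
CPM of Gzmb, Capg, Klrc1 and Bcl2a1d per hashtag in clusters 0 and 3 (cl.), with Cren in blue, Crep in red and a line at the mean of 4. The ratio of Crep to Cren is larger in cluster 0 than in cluster 3 for Gzmb (log2 1.75 and 0.92), the reverse holds for Capg, Klrc1 overlaps in both clusters, and Bcl2a1d is lower in Crep in cluster 0 and overlaps in cluster 3.

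The receptor segments used by cluster 3 differed from hashtag to hashtag. Among its cells with a single leading Trbv segment, Trbv3 was used by 37.3% in Cren_2 and 34.4% in Cren_3, Trbv20 by 42.1% in Cren_4 (8 of 19 cells) and Trbv14 by 20.8% in Cren_1. Trbv19 led in Crep_1 and Crep_2 with 27.6% and 19.9%, Trbv12-1 in Crep_3 with 16.5% and Trbv4 in Crep_4 with 19.4%. The segment that led outside cluster 3 was the same in Cren_1, Cren_2 and Cren_3 and another in the other 5 hashtags. In Crep_1 and Crep_2, Trbv19 was second outside cluster 3 (17.9% and 14.4%), close behind Trbv13-3 (18.7% and 15.2%). It also led in cluster 0 of these hashtags (18.9% and 24.0%). In Crep_4, Trbv13-3 was used by 60.3% of the cells outside the cluster and did not lead within it. Between 8 and 20 Trbv segments were seen in cluster 3 of a hashtag, so in none of them did all cluster 3 cells share 1 segment.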

How the data were processed

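Single-cell RNA of colon CD8 T cells was measured with a 5' droplet kit in 1 pooled library with hashtags. The authors deposited raw UMI counts of 12798 genes in 8562 cells and an annotation with the hashtag, condition and cluster of each cell. Per the submitters' processing notes, Seurat 4.3.0, Cell Ranger 7.0.0, the mm10 build and bcl2fastq 2.20.0.422 were used; filters and the clustering method are not given in the sources used here.

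The UMI counts were summed per hashtag over the cells of cluster 3, of cluster 0, of all other cells and of all cells. Every hashtag had at least 20 cluster 3 cells. Levels are CPM of these sums, and log2 ratios add 1 CPM. Crep and Cren were compared with edgeR 4.0.16 (TMM, filterByExpr, robust quasi-likelihood test, two-sided, Benjamini-Hochberg over all genes tested, threshold 0.05), which was tested on simulated data. limma 3.58.1 and DESeq2 1.42.0 were alternatives, with R 4.3.3 and Python 3.11.15. Quality medians were compared by an exact permutation test over hashtags.

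The members and gene lists were chosen with earlier results of these data known. Named genes were the proposed markers, the 20 highest and 10 lowest against all other cells and the 10 highest and lowest against cluster 0 (at least 50 CPM, same direction in every hashtag, receptor segments and ribosomal and mitochondrial genes left out), the 10 smallest p-values within cluster 3, interaction genes past the threshold, up to 4 genes per list, and Bcl6. Further list members are named where all counted members are listed. Gene positions come from GENCODE M21. Some genes are not reported here.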

Additional observations from a re-analysis of the deposited data

Results flagged for a closer look

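Crep_4 had a median of 1068 genes per cluster 3 cell, while the other Crep hashtags had 1336 to 1388. Arhgap26 was at 124.8 CPM in cluster 3 of Crep_4, against 78.4 to 81.8 CPM in the other Crep hashtags. These were the 2 of 44 groups of 4 hashtags checked in which one value stood far from the rest, and chance alone flags about 1 in 20 such groups.

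The difference between Crep and Cren was unequal in clusters 3 and 0 for 7 genes by the edgeR interaction test, which does not account for clusters made from the same cells. On the log2 scale, the difference in cluster 3 minus that in cluster 0 was -0.80 for Gzmb, 1.63 for Capg, -0.68 for Klrc1 and 0.88 for Bcl2a1d. For the receptor segments it was -7.31 for Trav2, 2.68 for Trbv31 and 1.73 for Trbv12-1.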

How the results depend on the processing

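Few cluster 3 cells in Cren_4 and Crep_4 (33 and 48) limit the depth of those sums. The Wilson intervals on the shares of cells cover counting error only. The count of genes called between Crep and Cren within cluster 3, 0 with edgeR, was 2 with DESeq2 (Capg and Trbv19), 15 with no filter on low counts, 4 with cells thinned to 2000 UMIs, and 0 to 3 when 1 hashtag was left out. It was 0 with limma-voom, with other scalings and without cells of uncertain hashtag. With a replicate block by the number in the hashtag names it was 11, but hashtags of the same number did not deviate together (correlations of -0.049, 0.024, 0.021 and 0.034), so the numbers were not taken to pair the samples. The count of 7 genes with an unequal difference was 23 with no filter, 18 with all other cells in place of cluster 0 (4 genes shared with the 7), and 4 to 13 when 1 hashtag was left out. Over all cells the count of 59 ranged from 14 to 121 when 1 hashtag was left out. Zfp683 within cluster 3 changed sign with DESeq2 (0.041) and limma-voom (0.31), and ranged from -0.44 to 0.28 when 1 hashtag was left out. Leaving out 1 hashtag moved the Crep minus Cren difference in median UMIs from -7.42 to 324.9, in mitochondrial percent from -0.107 to -0.0517 and in ribosomal percent from -1.06 to 0.287. The mitochondrial difference passed only without Cren_3 (exact permutation p = 0.0286). The share of cells in cluster 3 stayed higher in Crep, by 5.40 to 13.1 percentage points when 1 hashtag was left out. Of genes over 2-fold against all other cells on average, whether or not in every hashtag, there were 12, and 7 with 5 CPM added in place of 1. The causes of these shifts were not tested.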
